A study of Mus musculus with 6 samples.

Results

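Acetylation of histone H3 at lysine 27 (H3K27ac) in A9 cells treated with curcuphenol was compared with that in A9 cells treated with DMSO, gene by gene and over all classes of gene. The members are the 26182 mouse genes with a curated RefSeq transcript. For each gene, the base pairs (bp) of its body and of the 1000 bp upstream that lay inside regions called acetylated were counted in the curcuphenol list and in the DMSO list, and genes were ranked by the difference. Of the 26182 genes, 15276 held a region in either list. A9 is a metastatic line derived from TC1, which was itself made by transforming lung cells of the mouse. Treatment lasted 48 h, with curcuphenol (0.00167 μmol), a phenol known from marine sponges, or with 1% DMSO, its vehicle. Another culture received IFN-γ (about 5.8e-06 nmol), the cytokine that activates antigen presentation, and its list is given beside the other lists. Each treatment had 1 H3K27ac library and 1 input library, so every difference is a description of these libraries, without a measure of variation between cultures and without a test.

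H3K27ac marks active promoters and active enhancers. It is written by the acetyltransferases p300 and CBP, removed by histone deacetylases, and read by bromodomain proteins. Long stretches of acetylation over a gene body usually hold intronic enhancers of genes that define the identity and growth of a cell. The lists give where acetylation was called and how far a region extends. They do not give its height, so that a wide region is not the same as a high signal.

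The DMSO list held 47899 regions with a median width of 1042 bp, the curcuphenol list 48763 with a median of 1091 bp and the IFN-γ list 55622 with a median of 930 bp. The shortest regions of the DMSO, curcuphenol and IFN-γ lists were 221, 297 and 267 bp long. Both lists covered nearly the same length of genome, 69806768 bp under DMSO and 70282038 bp under curcuphenol, of which 45223797 bp were shared. The labelled cell type was compared with markers. All 10 mesenchymal markers held a region in either list, against 2 of 11 epithelial markers, 3 of 8 leukocyte markers and 6 of 7 endothelial markers. Of the epithelial markers, Cdh1 (E-cadherin) had 4437 bp under DMSO and 5711 bp under curcuphenol and Krt8 (keratin 8) had 487 and 0 bp. The other 9, Epcam, Nkx2-1 and the surfactant genes Sftpb and Sftpc among them, had no region in either list.

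Genes with fewer acetylated bp under curcuphenol outnumbered those with more. With curcuphenol, 7041 genes had more covered bp than with DMSO, 8003 had fewer and 232 had the same number. The median change was −42.5 bp, from a lower quartile of −615 bp to an upper quartile of 586 bp. Among large relative changes gains were more frequent over the whole gene, but not around start sites. A gene was called gained when it had at least 2-fold and at least 1000 bp more covered with curcuphenol, and lost when it had at least 2-fold and at least 1000 bp less. By this rule 1420 genes were gained, which is 9.3% of the covered genes, and 975 were lost, which is 6.38%. Within 1000 bp of start sites the numbers were 170 and 305, and at 1.5-fold and 500 bp they were 2794 and 2640. With only regions of at least 500 bp in both lists, where the unequal shortest widths play no part, 1584 genes were gained and 1077 lost. A total of 1201 genes had covered bp under curcuphenol and none with DMSO, and 756 had the reverse. For scale, IFN-γ against the same DMSO list gave 830 gained genes (5.6% of 14828) and 253 lost genes (1.71%). Both comparisons share the DMSO list.

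**Figure D1:**
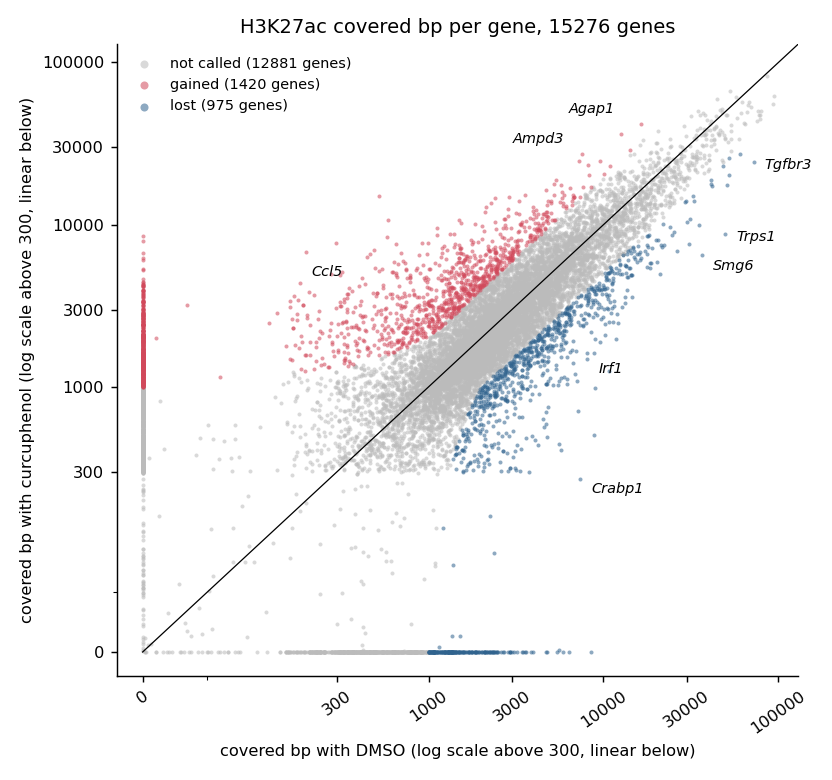
Covered bp of each of the 15276 genes with DMSO (x axis) and with curcuphenol (y axis), both axes logarithmic above 300 bp and linear below. Each point is a gene, red where called gained (1420), blue where called lost (975) and grey otherwise, and the line marks equality. Most genes lie along the line. Gained genes are dense at low DMSO values, and at the upper right, above 30000 bp under DMSO, most genes lie below the line. The DMSO value is itself part of the difference, which favours both patterns, so nothing is read from them.

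Of the 12 genes with the largest gain 11 are described here, and they were long genes, 10 of them with a window of at least 100000 bp. Agap1, a GTPase-activating protein of endosomal traffic, had 16488 bp in 14 regions under DMSO, 41952 bp in 20 regions under curcuphenol and 25277 bp under IFN-γ. Tenm4, a teneurin that acts in adhesion of nerve cells and in muscle and cartilage, had 12596 bp under DMSO, 36272 bp under curcuphenol and 16079 bp under IFN-γ. In Ampd3, the AMP deaminase that turns AMP into IMP, 7498 bp were covered with DMSO, 27322 bp under curcuphenol and 16562 bp under IFN-γ. Its window is only 45204 bp long, and the covered share went from 16.6% to 60.4%. Dip2c had 7213, 24626 and 9681 bp under DMSO, curcuphenol and IFN-γ. Ptprg, a receptor tyrosine phosphatase, had 9522, 24616 and 16824 bp. These 5 genes were called gained. The other 6 changed by less than 2-fold. Tspan9 (a tetraspanin) went from 20369 to 38001 bp, Thsd4 (a protein of microfibrils) from 16902 to 33080 bp, Lrrfip1 from 34905 to 49988 bp, Eps8 (an actin capping protein) from 31805 to 46768 bp, Dst (dystonin, a linker of the cytoskeleton) from 44544 to 59504 bp and Ptk2 (focal adhesion kinase) from 16243 to 31067 bp. In all 11 the IFN-γ value was above the DMSO value, and in 10 it was below the curcuphenol value, Tspan9 (39356 bp under IFN-γ) being the exception.

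Of the 12 largest losses 11 are described likewise, and they were larger than the gains, with changes of −47959 to −29887 bp against 14824 to 25464 bp. Tgfbr3, betaglycan, the co-receptor that presents TGF-β, had 72457 bp in 40 regions under DMSO and 24498 bp in 9 regions under curcuphenol, while IFN-γ gave 87225 bp. Trps1, a GATA-type repressor of cartilage and mammary cells, had 49836 bp under DMSO, 8765 bp under curcuphenol and 25038 bp under IFN-γ. Tead1, the DNA-binding partner of YAP, had 60665, 27156 and 71590 bp. Dnm3, a dynamin of membrane scission, had 50744, 17575 and 39474 bp, and Bnc2, a zinc finger protein of fibroblasts, had 52165, 20106 and 36268 bp. Smg6, the endonuclease of nonsense-mediated decay, had 36672 bp in 22 regions under DMSO, 6465 bp in 7 regions under curcuphenol and 31852 bp under IFN-γ. These 6 were called lost. The other 5 changed by less than 2-fold in total. Rgl1 went from 75864 to 43639 bp, Septin9 from 94283 to 62351 bp, the E-protein gene Tcf4 from 78871 to 47195 bp and Hmga2, an architectural protein of embryonic and tumour chromatin, from 77059 to 47172 bp. The last of them, Gm12610, is a long non-coding RNA gene whose window overlaps those of the tumour suppressor genes Cdkn2a and Cdkn2b, and it went from 93120 to 55738 bp. In all 11 the IFN-γ value was above the curcuphenol value, and in 4 (Tgfbr3, Tead1, Rgl1 and Septin9) it was also above the DMSO value. These genes were picked for low curcuphenol and high DMSO values, so nothing is read from this order either.

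**Figure D2:**
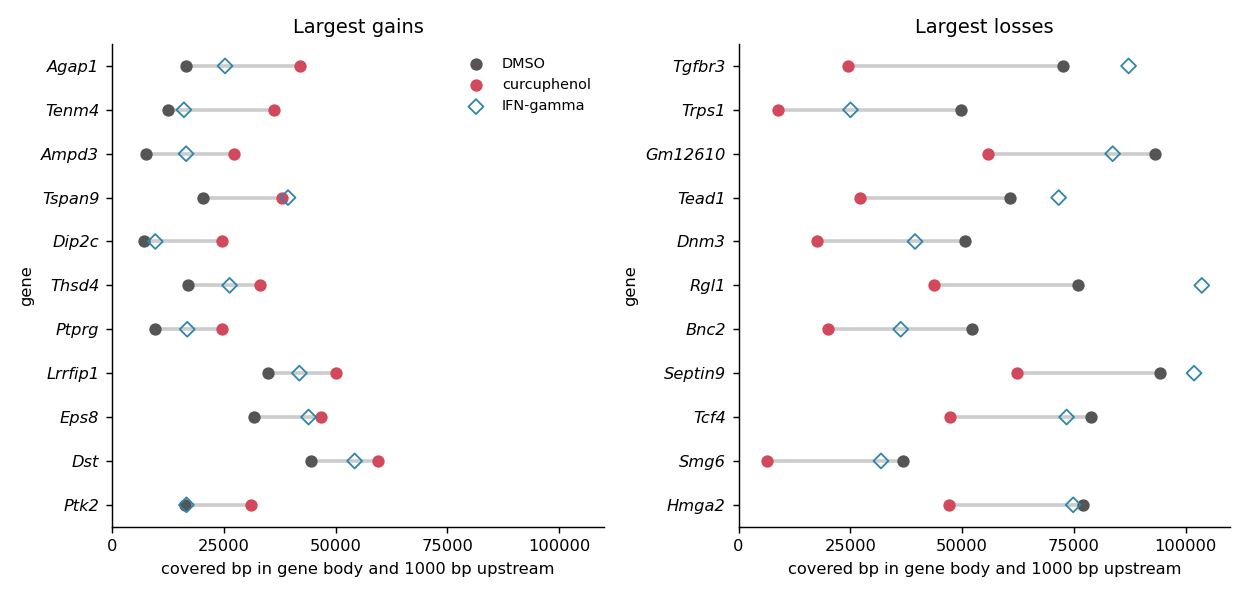
Covered bp (x axis) of 11 genes with the largest gains (left) and 11 with the largest losses (right), one row per gene, with DMSO in grey, curcuphenol in red and IFN-γ as open blue diamonds, 1 library each. Among the losses every curcuphenol point is the lowest of its row, and among the gains every DMSO point is. The genes were picked by their DMSO and curcuphenol values, which favours this order.

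Both treatments had covered bp within 1000 bp of a start site in 10 of these 11 gains and in 10 of these 11 losses. Any overlap counts here, such as the 279 bp of Tenm4 under DMSO, and the start itself need not be covered. To divide the change, the bp covered by a single list were split by whether their region had a partner, a region of the other list sharing at least 1 bp. In the 1420 gained genes, 70.7% of the 4357345 bp covered by curcuphenol alone lay in regions with no DMSO partner, and the rest in regions that overlapped a DMSO region in part. In the 975 lost genes, 52.6% of the 3666567 bp covered by DMSO alone lay in regions with no curcuphenol partner, and the rest in regions that overlapped a curcuphenol region in part. The median gained gene had 1 DMSO region and 2 curcuphenol regions, and the median lost gene had 3 and 1. By the same count, 621 gained genes had covered bp within 1000 bp of a start site with DMSO and 778 with curcuphenol. In lost genes the numbers were 767 and 594. The window decides the direction for some genes named here. Within 1000 bp of their start sites Kat7, Ncoa1, Cd274, Tap2, Bmpr1a, Znrf3, E2f3, Rrm2b and Clock, gained over the whole gene, had fewer covered bp under curcuphenol, and Tead1, lost over the whole gene, had more.

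**Figure D3:**
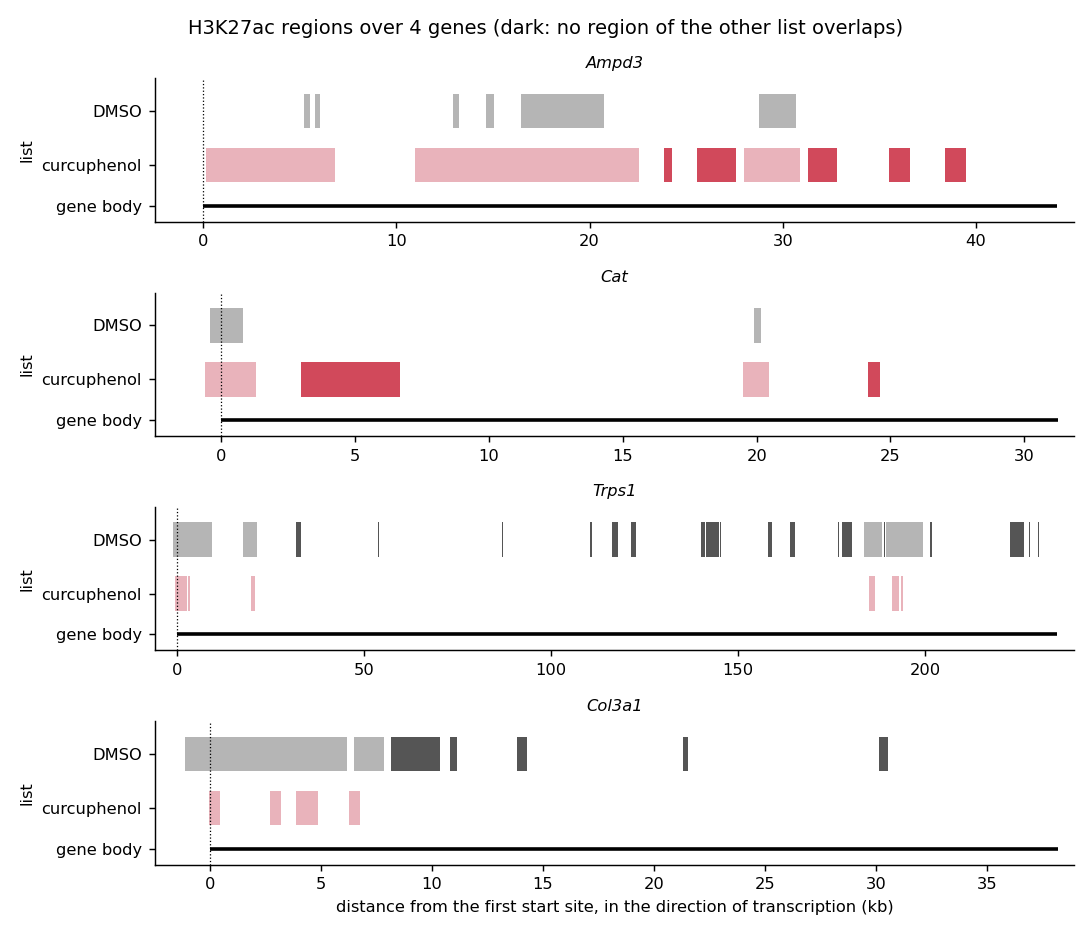
Regions over Ampd3, Cat, Trps1 and Col3a1 by distance in kb from the start of the gene in the direction of transcription (x axis), with DMSO regions above and curcuphenol regions below. Dark bars have no overlapping region in the other list, and the black line is the gene body. Ampd3 had 6 DMSO and 8 curcuphenol regions, the widest curcuphenol region spanning several DMSO regions, while Trps1 had 22 DMSO and 6 curcuphenol regions and lost most regions inside the gene.

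A larger share of the DMSO bp was also covered with curcuphenol at promoters than elsewhere. Of the DMSO bp within 1000 bp of a start site, 83.5% were covered with curcuphenol as well, against 59.6% in introns and 58.5% between genes. The total covered length at promoters was 15960932 bp under DMSO and 14677717 bp under curcuphenol, a change of −8.04%. In introns it changed by 0.244%, in exons by 7.33% and between genes by 7.17%. Over all regions, 34.3% of the curcuphenol regions (16746 of 48763, exact 95% interval 33.9 to 34.8%) had no DMSO partner, and 33.3% of the DMSO regions (15972 of 47899, 32.9 to 33.8%) had no curcuphenol partner. These intervals cover counting error only. Regions without a partner were shorter than those with one, with a median of 621 against 1434 bp for curcuphenol and of 472 against 1493 bp for DMSO. How deeply each library was sequenced is not given in the sources used here, and the part of depth in regions called in only 1 list was not tested.

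When genes were grouped by covered bp under IFN-γ, a list that the comparison does not use, the share of genes with fewer covered bp differed between the groups. Of the 185 genes with at least 30000 bp, 42 had more covered bp under curcuphenol and 143 had fewer, with a median change of −6469 bp. Of the 1022 genes with 10000 bp or more but under 30000 bp, 381 had more and 639 fewer. Of the 4124 genes with 3000 bp or more but under 10000 bp, 1852 had more and 2248 fewer, with a median change of −162 bp. Of the 6694 genes with 1000 bp or more but under 3000 bp, 2767 had more and 3735 fewer. The lowest groups did not lean to fewer. Of the 2038 genes with some covered bp but under 1000 bp, 1029 had more and 995 fewer. Of the 1213 genes with no covered bp under IFN-γ, 970 had more and 243 fewer, with a median change of 529 bp. These 1213 genes entered the count only through the DMSO or the curcuphenol list, with medians of 0 and 594 bp. Nothing is therefore read from the lean of this group.

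Relative to the length of the gene, and among windows of at least 2000 bp, the largest gain was that of Ccl5, the chemokine that attracts T cells. Ccl5 had 243 bp (4.23% of its window) with DMSO, 4386 bp (76.4%) with curcuphenol and 2618 bp under IFN-γ, in 1 region each with DMSO and curcuphenol. It was followed, among others, by the non-coding gene Gm37406 (0 to 2320 bp), the coding gene Gm867 (0 to 2652 bp) and the bitter taste receptor gene Tas2r137 (0 to 1202 bp), none of which had a region with IFN-γ. The largest relative losses among such windows were those of the non-coding gene Gm15867 (2916 to 0 bp, in a window that overlaps that of Sertad4), Crabp1, AI839979 (2806 to 820 bp), Irf1 and Ly6e. Irf1, the transcription factor that drives genes of antigen presentation, had 8085 bp (86.4% of its window) with DMSO, 1486 bp (15.9%) with curcuphenol and its whole window of 9361 bp under IFN-γ. Ly6e, an interferon-induced membrane protein that restricts viruses, had 5698, 1827 and 5795 bp. Crabp1, which binds retinoic acid in the cytoplasm, had 7376 bp in 6 regions under DMSO, 288 bp in 1 region under curcuphenol and 7137 bp under IFN-γ.

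Among genes without a DMSO region, those with most covered bp under curcuphenol were Phactr2 (8512 bp, a regulator of phosphatase 1 and actin), Megf11 (7971 bp), Kcnmb3 (6711 bp, a subunit of the BK potassium channel), Aldh1l2 (6252 bp, the mitochondrial folate enzyme) and Aqp9 (6100 bp, the channel for water and glycerol). With IFN-γ, Phactr2 had 2956 bp, Megf11 1570 bp and Kcnmb3 821 bp, and Aldh1l2 and Aqp9 had none. Among genes without a curcuphenol region, those with most DMSO bp included C1qtnf1 (8460 bp), Sertad4 (6326 bp, in part the same bp as Gm15867), the semaphorin gene Sema3d (5905 bp) and the fibrillar collagen gene Col5a2 (4764 bp). With IFN-γ these had 7985, 5052, 1259 and 0 bp. Within 1000 bp of their start sites, Aldh1l2 and Aqp9 had covered bp with curcuphenol and not with DMSO. There C1qtnf1, Sertad4, Sema3d and Col5a2 had covered bp with DMSO and not with curcuphenol.

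The promoters of Aqp9, Ampd3, Crabp1 and Fgf2 are shown because each lay wholly inside a region of the curcuphenol or the DMSO list and outside all regions of the other. They run from 250 bp before to 50 bp after the start, from RefSeq on GRCm38.p6. Capitals mark matches on either strand to 12 short motifs searched. The Aqp9 promoter (chr9:71162584-71162883, minus strand) was covered with curcuphenol alone of the 3 lists, the Ampd3 promoter (chr7:110768372-110768671, plus strand) over its whole length with curcuphenol, over 237 bp under IFN-γ and over 0 bp under DMSO, and the promoters of Crabp1 (chr9:54764498-54764797, plus strand) and Fgf2 (chr3:37348403-37348702, plus strand) with DMSO and IFN-γ and not with curcuphenol.
Aqp9 promoter: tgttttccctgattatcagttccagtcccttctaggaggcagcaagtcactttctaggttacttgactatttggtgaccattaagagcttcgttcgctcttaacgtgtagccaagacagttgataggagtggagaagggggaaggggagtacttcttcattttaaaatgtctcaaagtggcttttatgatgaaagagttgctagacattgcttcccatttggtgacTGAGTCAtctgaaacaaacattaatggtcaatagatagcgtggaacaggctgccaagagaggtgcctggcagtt
Ampd3 promoter: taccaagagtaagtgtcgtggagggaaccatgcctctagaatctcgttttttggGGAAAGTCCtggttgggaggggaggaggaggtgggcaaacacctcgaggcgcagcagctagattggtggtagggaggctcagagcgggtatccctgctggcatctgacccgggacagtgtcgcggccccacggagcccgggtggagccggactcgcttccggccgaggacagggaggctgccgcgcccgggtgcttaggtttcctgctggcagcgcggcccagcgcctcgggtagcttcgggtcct
Crabp1 promoter: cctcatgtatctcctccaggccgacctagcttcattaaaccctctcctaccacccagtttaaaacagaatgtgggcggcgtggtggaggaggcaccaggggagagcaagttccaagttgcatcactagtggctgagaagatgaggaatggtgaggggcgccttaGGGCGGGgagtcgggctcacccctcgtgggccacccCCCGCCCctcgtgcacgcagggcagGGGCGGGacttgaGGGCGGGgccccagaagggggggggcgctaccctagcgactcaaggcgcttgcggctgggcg
Fgf2 promoter: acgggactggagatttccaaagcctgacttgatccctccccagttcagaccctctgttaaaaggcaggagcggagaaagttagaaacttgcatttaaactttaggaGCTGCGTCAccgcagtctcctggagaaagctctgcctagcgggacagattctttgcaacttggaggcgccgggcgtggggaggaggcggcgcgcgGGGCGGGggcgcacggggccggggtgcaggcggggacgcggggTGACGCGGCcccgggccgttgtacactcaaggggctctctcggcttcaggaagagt
The Aqp9 promoter holds 1 AP-1 match (TGANTCA, bases 227 to 233), present in 7.81% of the 32851 RefSeq promoters. The Ampd3 promoter holds 1 NF-κB match (GGANTTTCC, bases 55 to 63), present in 1.25% of promoters. Crabp1 has 4 matches to the KLF and SP motif (GGGCGGG), which 25.6% of promoters hold. Fgf2 has 1 such match and 2 matches to the antioxidant response element (TGACNNNGC), which 12.4% of promoters hold. A match is a string of letters and not a bound site. Ampd3 has a further start site downstream, and within 1000 bp of its best covered start site 573 bp were covered with DMSO.

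The other pair of sequences comes from inside genes. They are the central 300 bp of the widest curcuphenol region without a DMSO partner among these largest gains, in Agap1 (chr1:89624652-89624951), and of the widest DMSO region without a curcuphenol partner among these largest losses, in Smg6 (chr11:74990767-74991066), both on the plus strand of GRCm38.p6. The Agap1 stretch was covered by neither DMSO nor IFN-γ regions, and the Smg6 stretch was covered with DMSO and IFN-γ.
Agap1 curcuphenol region: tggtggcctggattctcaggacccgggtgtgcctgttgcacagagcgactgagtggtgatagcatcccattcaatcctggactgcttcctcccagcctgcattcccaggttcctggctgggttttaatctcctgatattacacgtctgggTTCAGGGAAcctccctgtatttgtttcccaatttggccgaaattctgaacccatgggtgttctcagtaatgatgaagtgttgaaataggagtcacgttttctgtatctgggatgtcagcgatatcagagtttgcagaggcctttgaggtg
Smg6 DMSO region: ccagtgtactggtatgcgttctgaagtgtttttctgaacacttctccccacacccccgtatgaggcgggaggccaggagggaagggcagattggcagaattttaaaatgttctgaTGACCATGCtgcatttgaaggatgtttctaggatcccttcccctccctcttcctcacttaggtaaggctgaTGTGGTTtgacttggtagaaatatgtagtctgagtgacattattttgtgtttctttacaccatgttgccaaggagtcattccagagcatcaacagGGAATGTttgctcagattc
Capitals mark a STAT match (TTCNNNGAA) in Agap1 and, in Smg6, in this order, an antioxidant response element, a RUNX match (TGTGGTT) and a TEAD match (GGAATGT).

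Motifs were counted on both strands in the central 300 bp of every region, without regard to overlaps between motifs. The antioxidant response element was found in 14.4% of curcuphenol regions without a DMSO partner (2403 of 16746, exact 95% interval 13.8 to 14.9%) and in 9.27% of DMSO regions without a curcuphenol partner (1481 of 15972, 8.83 to 9.73%), against 13.4% of all 96662 regions. The E-box (CACGTG) was found in 4.78% and 2.82%, against 4.85% of all regions. AP-1 was found in 19.0% and 15.2%, against 19.8%. The interferon-stimulated response element (GAAANNGAA) went the other way, with 9.42% of curcuphenol regions without a partner (8.99 to 9.88%) and 13.8% of DMSO regions without a partner (13.3 to 14.4%), against 10.3% of all regions. STAT (9.41% and 11.2%), FOXO (GTAAACA, 4.13% and 5.41%), RUNX (8.12% and 9.36%), TEAD (4.32% and 5.07%) and NF-κB (1.03% and 1.51%) were also more frequent on the DMSO side. Over all regions STAT was found in 9.51%, FOXO in 4.32%, RUNX in 7.99%, TEAD in 4.62% and NF-κB in 1.43%. For NF-κB the DMSO share was thus near that over all regions, and the curcuphenol share was the low one. NR4A (AAAGGTCA, 1.67% and 1.91%), CREB (TGACGTCA, 0.281% and 0.244%) and the KLF and SP motif (2.19% and 2.49%) had intervals that overlapped. The shares in curcuphenol regions without a partner were close to those over all regions for the antioxidant response element, the E-box and AP-1, and the DMSO regions without a partner stood apart from both. The median GC content of the same stretches was 46.0% for curcuphenol and 43.0% for DMSO regions without a partner, and its part in the motif shares was not tested. The gaps in the antioxidant response element (16.6% and 10.2%), the E-box (4.90% and 2.69%) and the interferon-stimulated response element (9.54% and 15.1%) were also present in regions of at least 500 bp.

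**Figure D4:**
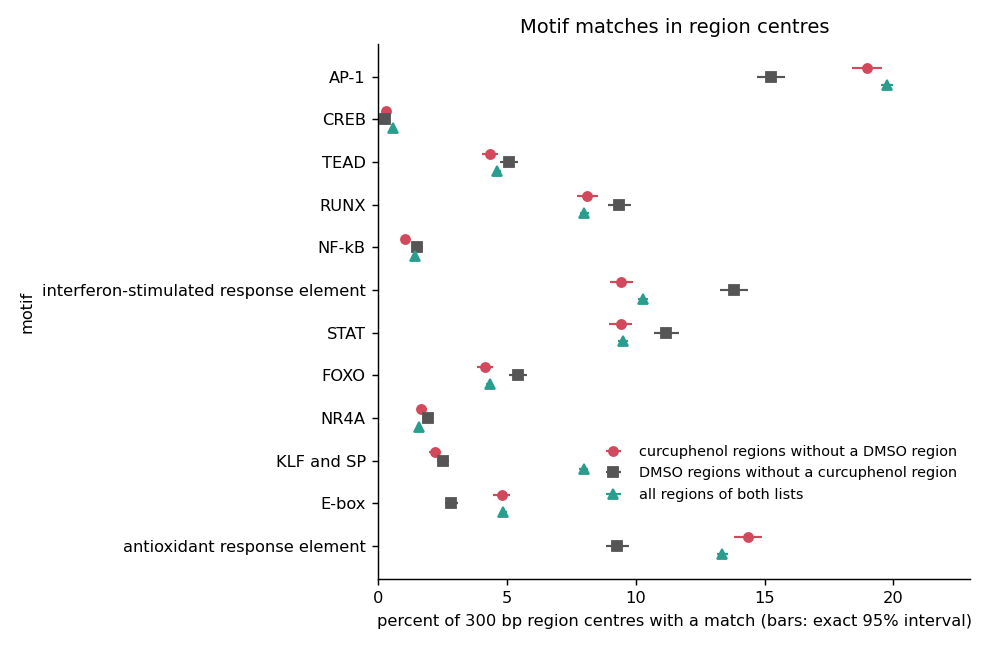
Percent of region centres (300 bp) with a match to each of 12 motifs (x axis), for curcuphenol regions without a DMSO partner (red circles), DMSO regions without a curcuphenol partner (grey squares) and all regions of both lists (green triangles), with exact 95% intervals as bars. The antioxidant response element, the E-box and AP-1 lie further right for curcuphenol, and the interferon-stimulated response element lies further right for DMSO.

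Groups of genes with known functions were then described by their counts, beside the 9.3% gained and 6.38% lost over all covered genes and the median of −42.5 bp. The lists were written with earlier results of these data known. Genes of the extracellular matrix and its proteases had fewer covered bp under curcuphenol in 25 of 32 members and more in 7, with 9 lost, none gained and a median of −1776 bp. Col3a1, a fibrillar collagen, had 12154 bp under DMSO, 2484 bp under curcuphenol and 2661 bp under IFN-γ. Loxl2, which cross-links collagen, had 21190, 7531 and 23110 bp. The gelatinase gene Mmp2 had 17858, 8485 and 18491 bp, and the fibronectin gene Fn1 had 8310, 2773 and 8885 bp. Loxl2, Mmp2 and Fn1 were thus low in the curcuphenol list alone, while Col3a1 was low in the IFN-γ list too. Mesenchymal markers, which share Fn1, Col1a1 and Col1a2 with the matrix list, had fewer covered bp in 9 of 10 members, with 3 lost. Col1a1 went from 1326 to 0 bp and Acta2 (smooth muscle actin) from 1024 to 0 bp, both just past the 1000 bp limit.

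Receptor tyrosine kinases and their ligands had fewer covered bp in 16 of 23 members, with 7 lost, 2 gained and a median of −2297 bp. Fgf2, a fibroblast growth factor, had 18579 bp in 13 regions under DMSO, 5842 bp in 5 regions under curcuphenol and 18890 bp under IFN-γ. Its receptor gene Fgfr1 had 15004, 6344 and 11596 bp, the PDGF receptor gene Pdgfrb 4745, 1775 and 3763 bp, and the ligand gene Hgf 6556, 2597 and 1659 bp. Egfr (449 to 1726 bp) and Ror1 (280 to 1388 bp) were gained from low levels. In the TGF-β list, 19 of 28 members had fewer covered bp and 8 had more, with 6 lost and 2 gained. Besides Tgfbr3, the lost members included the receptor gene Tgfbr2 (12371 to 5714 bp), the ligand gene Tgfb3 (4695 to 1036 bp) and the inhibitor gene Smad6 (3335 to 858 bp). The gained members were the BMP receptor genes Bmpr1a (5876 to 13667 bp, 5729 bp under IFN-γ) and Bmpr1b (1315 to 3915 bp, none with IFN-γ). Another BMP receptor gene of the list, Bmpr2, went the other way, from 4536 to 2348 bp, and was not called.

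In the list of YAP, TEAD and their targets, 14 of 18 members had fewer covered bp and 4 had more. The TEAD genes parted. Tead4 had 14156 bp in 5 regions under DMSO and 28696 bp in 12 regions under curcuphenol and was gained, whereas Tead1 (60665 to 27156 bp) and Tead3 (2153 to 0 bp) were lost. The co-activator gene Yap1 was lost as well (10530 to 4600 bp). In the WNT list 11 members had more and 13 fewer, with Znrf3 (1222 to 5170 bp, a ligase that removes WNT receptors) and Ror1 gained and the antagonist gene Dkk3 (10063 to 3031 bp), Tcf7l1 (6656 to 1405 bp), Axin1 (5371 to 2025 bp) and Fzd2 (2367 to 941 bp) lost. Genes of the actin cytoskeleton and focal adhesions had fewer covered bp in 24 of 34 members with a median of −1025 bp, but only the integrin gene Itgb1 (11221 to 5148 bp) was lost and none was gained. Housekeeping genes had fewer in 14 of 20 members, with none called and a median of −238 bp.

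Stress genes were gained in shares near that over all genes. In the list of the oxidative stress and xenobiotic response, 20 of 32 members had more covered bp under curcuphenol, 11 had fewer and 1 was equal, with 4 gained, 2 lost and a median of 656.5 bp. Cyp1a1, the monooxygenase induced through the aryl hydrocarbon receptor, had 512 bp under DMSO, 2934 bp under curcuphenol and 1292 bp under IFN-γ. Hmox1, heme oxygenase 1, had 1588, 3972 and 1581 bp. Gclm, the regulatory subunit of the enzyme that limits glutathione synthesis, had 1614, 3787 and 2851 bp, and Taldo1, an enzyme of the pentose phosphate pathway, had 1262, 3425 and 3049 bp. The lost members were Tiparp (20103 bp in 9 regions to 5902 bp in 2 regions, 6200 bp under IFN-γ), which represses the aryl hydrocarbon receptor, and Cyp1b1 (1365 to 26 bp), a second target of the same receptor. In the unfolded protein and integrated stress response, 14 of 24 members had more and 10 fewer, with 3 gained and none lost. Herpud1, of the degradation of proteins at the endoplasmic reticulum, had 2287, 5476 and 2388 bp under DMSO, curcuphenol and IFN-γ. Trib3, a pseudokinase induced by ATF4, had 1387, 3085 and 1852 bp, and Chac1, which degrades glutathione, had 1571, 3178 and 1712 bp. Atf3, another gene of this response held in the AP-1 list, had 1966, 6458 and 4931 bp, while 7 of the 15 AP-1 genes covered had fewer and 6 more.

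**Figure D5:**
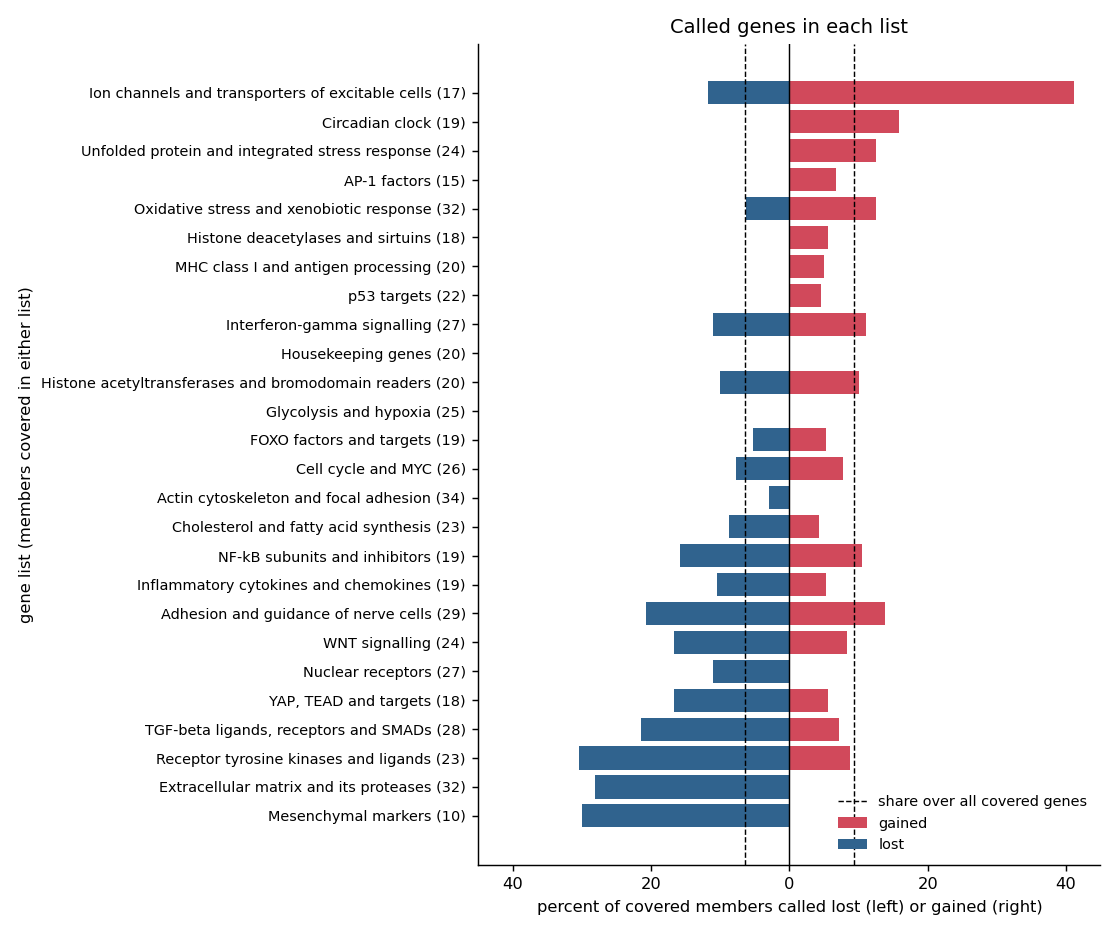
Percent of the covered members of each gene list called lost (blue, to the left) or gained (red, to the right), for the lists with at least 10 covered members, whose number stands in brackets. Dashed lines are the shares over all covered genes, 6.38% lost and 9.3% gained. Matrix genes, receptor tyrosine kinases, mesenchymal markers and TGF-β genes reach 21.4% lost or more, and ion channels reach 41.2% gained, with 7 of 17 members covered with curcuphenol alone. The lists differ in DMSO bp, whose part in these shares was not tested.

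Genes of the circadian clock had more covered bp in 11 of 19 members, with 3 gained and none lost. Clock, the activator of the cycle, had 2212, 6840 and 1998 bp under DMSO, curcuphenol and IFN-γ, and the PAR bZIP genes Tef (3233, 7437 and 3294 bp) and Hlf (1253, 3291 and 3106 bp) were gained too. Catalase, Cat, of the FOXO list, had 1507, 7035 and 1941 bp, while Sod2, the mitochondrial superoxide dismutase, had 3077, 1273 and 5324 bp. In that list 14 of 19 members had fewer. Of the genes of glycolysis and hypoxia, 15 had more and 10 fewer, with none called and a median of 365 bp. Nuclear receptors had fewer in 21 of 27 members, with Rarb (24744 to 8606 bp), Thra (6423 to 2416 bp) and Nr4a1 (3677 to 1566 bp) lost and none gained. In the cell cycle and MYC list 18 of 26 had fewer. E2f3 (4632 to 9452 bp) and Ccnd2 (1817 to 4576 bp) were gained, and Rb1 (13471 to 5554 bp) and the proliferation marker gene Mki67 (5383 to 1826 bp) were lost. Of the p53 targets 10 had more and 12 fewer, with Rrm2b (1611 to 4397 bp) gained. In cholesterol and fatty acid synthesis 16 of 23 had fewer, with the carboxylase gene Acaca (2759 to 6278 bp) gained and Fdft1 (8112 to 3391 bp) and Fdps (1436 to 314 bp), both of the sterol branch, lost.

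Genes of the acetylation machinery were divided. Histone deacetylases and sirtuins had more in 9 members and fewer in 9, with only Hdac8 called. It had 4279 bp in 3 regions under DMSO, 9243 bp in 4 regions under curcuphenol and 5956 bp under IFN-γ. Of the acetyltransferases and bromodomain readers, 9 had more and 11 fewer. Kat7 (2986 to 6031 bp) and Ncoa1 (735 to 3637 bp) were gained, and Kat2b (PCAF, 14623 to 4869 bp, 19188 bp under IFN-γ) and Crebbp (CBP, 3433 to 1631 bp, 1737 bp under IFN-γ) were lost. Crebbp is the gene of an enzyme that writes H3K27ac.

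In NF-κB subunits and inhibitors 13 of 19 had fewer. Tnip1 (4771 to 11308 bp, 12208 bp under IFN-γ) and Tnip2 (977 to 4106 bp), whose proteins work with A20, were gained, whereas the gene of A20 itself, Tnfaip3 (3832 to 1658 bp), Nfkbie (3780 to 1456 bp) and the kinase gene Chuk (3149 to 1569 bp) were lost. Inflammatory cytokines and chemokines had fewer in 13 of 19. Ccl5 was gained, and Ccl2, which attracts monocytes, went from its whole window of 2876 bp, also covered with IFN-γ, to 1219 bp, and Ccl7 from 1283 to 0 bp. In interferon-γ signalling 21 of 27 had fewer and 5 more, with 3 gained (Pml, 4042 to 10230 bp, Ptpn11, 1748 to 5114 bp, and Cd274) and 3 lost (Irf1, Iigp1 and Gbp3). In MHC class I and antigen processing 19 of 20 had fewer, with a median of −341.5 bp, and Tap2 was the only member called (461 to 1643 bp, gained). These values for interferon and MHC genes are given to complete the lists.

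Of 27 ion channels and transporters of excitable cells, 17 were covered, 7 of them with curcuphenol alone, and a member covered in 1 list alone enters the count only through that list. With that limit, 7 were gained and 2 lost, and nothing is read from the share. These genes are long, with a median window of 418025 bp. Kcnma1, the pore of the BK channel, whose subunit gene Kcnmb3 is named above, had 523 bp in 1 region under DMSO, 5182 bp in 5 regions under curcuphenol and 273 bp under IFN-γ. The glutamate transporter gene Slc1a2 had 2735, 9920 and 4057 bp, and Cacnb4, a calcium channel subunit, had 748, 3344 and 1439 bp. The kainate receptor gene Grik4 had 1973 bp under curcuphenol and none in the other lists, and Grik2 went from 4678 to 587 bp. Among all covered genes with a window of at least 100000 bp, 16.7% were gained and 9.42% were lost, so that length moves with both calls, and its part in this list was not tested. Genes of adhesion and guidance of nerve cells, also long, were called in both directions, 4 gained and 6 lost of 29. Plxna4, a semaphorin receptor, had 5326, 18969 and 6760 bp, while Sema3a, a ligand of the family, had 26473, 6908 and 8543 bp and the guidance gene Slit3 had 20554, 7995 and 26793 bp.

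Long non-coding RNA genes had shares near those of coding genes. Of 1579 long non-coding RNA genes covered, 10.3% were gained and 6.59% lost, against 9.39% and 6.45% of 13263 coding genes. The largest gains among them were D5Ertd615e (12088 to 21060 bp), 4921511C10Rik (924 to 7671 bp) and Gm48957 (993 to 7669 bp), and after Gm12610 the largest losses were Mir100hg (64096 to 41634 bp), the host of the miR-100 cluster, and Gm13986 (25458 to 8964 bp), whose window overlaps that of Thbs1. MicroRNA windows are short, with a median of 1078 bp against the 1000 bp that a call needs, and of 233 covered only 5 were gained and 10 lost. The mature forms of those with the largest change are shown because the family of target genes is set by the seed, bases 2 to 8, in capitals. The sequences are from RefSeq on GRCm38.p6. Those gained went from 0 bp to the whole window, in regions without a DMSO partner. Those lost went from the whole window to 0 bp, but their DMSO regions overlapped a curcuphenol region outside the window. Within 1000 bp of the start site of Mir3074-2, 805 bp were still covered with curcuphenol. With IFN-γ, Mir16-2 also had 0 bp, while Mirlet7e had 1093 bp and Mir3074-2 1083 bp.
miR-7081-5p (gained, 0 to 1075 bp): aGAGGAGGgugcucggccggggauua
miR-3097-5p (gained, 0 to 1067 bp): cACAGGUGggaagugugugucca
miR-6937-5p (gained, 0 to 1065 bp): uAGCUGUAagggcugggucugugu
miR-16-5p from Mir16-2 (lost, 1095 to 0 bp): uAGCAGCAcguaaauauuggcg
let-7e-5p (lost, 1093 to 0 bp): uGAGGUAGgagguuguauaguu
miR-3074-5p from Mir3074-2 (lost, 1083 to 0 bp): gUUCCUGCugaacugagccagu
No 2 of these 6 share a seed. The seed of miR-16 is that of the family that restrains cyclins, and the seed of let-7e that of the family that restrains Hmga2 and RAS. Of these windows, 5 overlap that of a coding gene, Mir7081 in Dnmt1, Mir3097 in Rgs12, Mir6937 in Adi1, Mir16-2 in Smc4 and Mirlet7e in Spaca6, and coverage of the pair cannot be told apart.

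By chromosome, the X chromosome had the largest share of genes with fewer covered bp. There 181 genes had more and 307 fewer covered bp under curcuphenol, with a median of −217 bp, 5.94% gained and 9.22% lost. On chromosome 17, 285 had more and 432 fewer, with a median of −140 bp. On chromosome 4 only 3.05% were lost, and on chromosome 12, 13.2% were gained. The number of copies of each chromosome in each culture was not measured, and its part in these values was not tested.

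The genes called with curcuphenol were finally set beside their IFN-γ values. In the 1420 gained genes the median was 704.5 bp under DMSO, 2984 bp under curcuphenol and 1278 bp under IFN-γ. In the 975 lost genes it was 3252 bp under DMSO, 1126 bp under curcuphenol and 2852 bp under IFN-γ. Of the gained genes, 284 were also gained and 6 lost with IFN-γ, and of the lost genes 146 were also lost and 30 gained. Since both comparisons use the same DMSO list, a DMSO value that is low or high by itself moves both in 1 direction, and no likeness of the treatments is read from these counts.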

How the data were processed

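H3K27ac ChIPseq was made by the authors from A9 cells under DMSO, curcuphenol and IFN-γ, with 1 H3K27ac and 1 input library per treatment. Paired-end reads were aligned to mm10 with BWA mem (version 0.7.17 per the submitters' processing notes, while the study's methods name an earlier one) and regions were called with MACS2 (2.1.2) against the input of the same treatment. The deposited values are the start and end positions of the regions, in bp, with a name and no score or p-value. Duplicate filters and read depth are not given in the sources used here.

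Genes were those of the RefSeq annotation of GRCm38.p6 with a curated transcript. Their window is the span of these transcripts plus 1000 bp upstream. Covered bp per window were counted in Python (3.11.15, numpy 2.4.6, pandas 2.3.3). A partner shares at least 1 bp. A gene was called gained or lost at 2-fold and 1000 bp. Shares of regions have exact Clopper-Pearson 95% intervals (scipy 1.17.1). Motifs were searched in 300 bp around region centres. Counting was tested on simulated lists, where 0 of 672 checks differed from a direct count.

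The genes named are the 12 largest gains and losses whose windows do not overlap, the 5 largest in percent of the window (windows of at least 2000 bp), the 5 largest with 0 bp in 1 list, up to 3 in each direction per non-coding class, up to 4 called members in each direction per list and up to 2 per family of symbols with at least 15 covered members. A few genes under this rule are not reported here. Markers, Cdkn2a, Cdkn2b and host genes are named besides. The members, the 29 lists and the rule were chosen with earlier results of these data known. The alternatives were a gene body alone, a longer upstream part, start sites alone, predicted transcripts, wider or joined regions, scaled totals and other limits of the call.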

Additional observations from a re-analysis of the deposited data

How the results depend on the processing

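No paired analysis was possible because each treatment has 1 library, and there was no replicate to leave out. Genes with fewer covered bp outnumbered those with more under every alternative run. Gained genes outnumbered lost genes under every alternative except 1000 bp around start sites, where 4165 genes had more covered bp and 7328 fewer, 170 were gained, 305 were lost, and 523 were covered with curcuphenol and not with DMSO. There gained genes were 35.8% of those called, against 59.3% over the whole window. With predicted transcripts included, 1918 genes were covered with curcuphenol alone and 1261 with DMSO alone. A call at 1.5-fold and 500 bp gave 2794 gained and 2640 lost genes, and one at 3-fold and 2000 bp gave 484 and 216. With a reciprocal overlap of 50%, 28565 curcuphenol and 27701 DMSO regions had no partner, and among regions of at least 500 bp 9462 DMSO regions had none. Scaling DMSO to the curcuphenol total left the direction and call of all 174 named genes in place. Around start sites 53 of the 174 kept both, 109 lost their call or did not keep their direction without having been called, and 12 that were called turned direction: Tead1 (193 bp), Kat7 (−165 bp), Ncoa1 (−219 bp), Cd274 (−220 bp), Tap2 (−110 bp), Bmpr1a (−11 bp), Znrf3 (−102 bp), E2f3 (−411 bp), Rrm2b (−109 bp), Clock (−50 bp), Kif13b (−220 bp) and Kif26b (−363 bp). That setting leaves the gene body out by construction. Grouping genes by the IFN-γ list was chosen after seeing the data. The read depth of the libraries, which limits what is called, is unknown here.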

Other observations

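Families of genes that share a symbol are given beside the shares over all covered genes, 9.3% gained and 6.38% lost. They were picked by their share of calls from 82 families, many rest on 2 or 3 genes, and their counts are a description. Of 21 covered genes with the symbol Pde, most of them phosphodiesterases of cyclic nucleotides, 16 had more covered bp under curcuphenol and 5 fewer, 7 were gained (33.3%) and none was lost. However, 6 of the 21 were covered with curcuphenol alone and none with DMSO alone. Their median window was 123684 bp, and of all covered genes with windows of at least 100000 bp 16.7% were gained. Pde2a had 0 bp under DMSO, 3354 bp under curcuphenol and 316 bp under IFN-γ, and Pde5a had 0, 3336 and 0 bp. Of 15 Rgs genes, which end signals of G proteins, 5 were gained (33.3%) and 2 lost (13.3%), while 3 were covered with curcuphenol alone and 2 with DMSO alone. Rgs12 went from 4331 to 9590 bp and Rgs6 from 0 to 2565 bp, while Rgs16 went from 4472 to 1696 bp and Rgs22 from 2727 to 1180 bp. The 250 covered solute carrier genes (Slc), chosen after their values were seen, had more in 144 and fewer in 105, with 39 gained (15.6%) and 14 lost (5.60%). Among them 38 were covered with curcuphenol alone and 15 with DMSO alone. Of 32 kinesin genes (Kif) 7 were gained (21.9%), Kif13b (5841 to 13001 bp) and Kif26b (2198 to 7101 bp) among them, and 3 lost. Of 15 Prss genes 4 were gained (26.7%) and 1 lost, with Prss12 from 340 to 3029 bp and Prss56 from 992 to 3340 bp. Among the 15, 4 were covered with curcuphenol alone and 4 with DMSO alone. Of 19 Kctd genes 4 were gained (21.1%) and 1 lost, with Kctd1 from 893 to 5063 bp and Kctd21 from 1224 to 2983 bp. In this family 2 were covered with curcuphenol alone and 1 with DMSO alone. Of 19 palmitoyltransferase genes (Zdhhc), 11 had more covered bp and 8 fewer, with a median of 98 bp. Of them 4 were gained (21.1%) and none lost, Zdhhc20 (2406 to 6827 bp) and Zdhhc21 (2750 to 6936 bp) among the gained.

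On the other side, 8 of 31 collagen genes (Col) were lost (25.8%) and 4 gained, with a median of −1262 bp, Col24a1 going from 13475 to 5574 bp. Of 28 Klhl genes 5 were lost (17.9%), Klhl4 (3630 to 0 bp) and Klhl23 (1769 to 0 bp) among them, although 17 of the 28 had more covered bp. Of the 28, 3 were covered with DMSO alone and 3 with curcuphenol alone. Of 17 genes with the symbol Bcl 3 were lost (17.6%), with the WNT co-activators Bcl9l (14672 to 7275 bp) and Bcl9 (3139 to 906 bp). Of 20 Abhd genes, 4 were covered with DMSO alone and 1 with curcuphenol alone. In this family 3 were lost (15.0%), Abhd14a (1229 to 0 bp) and its neighbour Abhd14b (1369 to 0 bp) among them. The windows of this pair overlap and hold 1 DMSO region each, so the same bp can be counted in both. Of 15 Ifi genes none was gained and 2 were lost (13.3%), Ifi47 (7137, 714 and 15791 bp under DMSO, curcuphenol and IFN-γ) and Ifi205 (1431, 429 and 2029 bp).

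Small nucleolar RNA genes were rarely called, but their windows have a median of 1087 bp and a call needs a change of 1000 bp, so few calls were possible. Of 82 covered snoRNA genes 1 was gained, Snord15b (0 to 1145 bp, in the window of Rps3), and none was lost. The curcuphenol region over Snord15b overlapped a DMSO region outside its window. Of 89 covered pseudogenes 5 were gained (5.62%) and 4 lost (4.49%), against 9.3% and 6.38% over all covered genes. Gm4371 went from 0 to 2661 bp and Speer5-ps1 from 0 to 2077 bp. Gbp11 had 3554 bp under DMSO, 0 bp under curcuphenol and 2002 bp under IFN-γ, and Gm29719 had 3218, 0 and 4542 bp. Markers of other cell types went both ways. Of 6 covered endothelial markers, 3 had more covered bp under curcuphenol and 3 fewer. Cdh5 (1812 to 5668 bp) and Erg (0 to 1010 bp) were gained and Vwf (1708 to 0 bp) was lost. Of 3 covered leukocyte markers, 1 had more and 2 fewer, with Spi1 (0 to 1427 bp) gained. Erg and Spi1 had no DMSO region, so they enter these counts only through the curcuphenol list.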
